A study of Mus musculus with 6 samples.

Results

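Transcripts of the enteroendocrine cells of the gut were examined in colorectal tissue of colitis mice given either of 2 drugs. The genes were Chga, Chgb, Gcg, Pyy, Insl5, Sst, Cck, Tph1, Neurod1 and Nts, which were listed by name as hormones and markers of these cells, with earlier results of these data known. All 10 were present among the 18268 genes measured, and 9 of them passed the filter on low values and were tested. The tissue came from 6 C57BL/6 mice with colitis, which was induced in all of them by dextran sulfate sodium (DSS) for 7 days. By gavage for 6 days, 3 mice received berberine (BBR), a plant alkaloid, and 3 received sulfasalazine (SASP), an aminosalicylate prodrug in clinical use against colitis. The study describes its colitis mice as adult males. No group of healthy mice or of colitis mice without a drug was analysed here, so each difference given is between mice on BBR and mice on SASP and has no untreated level beside it. In the study, RNA of rectum is named for mice receiving BBR and RNA of colon for mice receiving SASP, whereas the labels of both groups give colorectal tissue. If the sampled region did differ, region and drug cannot be told apart.

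Enteroendocrine cells are scattered hormone-secreting cells of the gut epithelium that sense nutrients, bacterial products and bile acids at the lumen and release peptides or serotonin. In the colon, L cells make the peptides of the proglucagon gene Gcg, peptide YY (Pyy) and insulin-like peptide 5 (Insl5). Enterochromaffin cells make serotonin with the enzyme encoded by Tph1, and D cells make somatostatin (Sst). Chromogranins A and B (Chga and Chgb) are proteins of the secretory granule, and Neurod1 is a transcription factor of the lineage. Cholecystokinin (Cck) and neurotensin (Nts) are hormones made mainly in the small intestine.

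Promoter sequences are shown for the genes on which the results turn, because cyclic AMP is a known regulator of several hormone and granin genes and acts through the element TGACGTCA or its core TGACG. Each sequence is the stretch of 120 bases just before the gene start in RefSeq (GRCm38.p6), written 5′ to 3′ on the strand of the gene. Capitals mark TGACG (including TGACGTCA) and TATAAA, on either strand. Where RefSeq gives several starts, the stretch before the most upstream start is printed.
Chgb (chr2:132781522-132781641, plus strand): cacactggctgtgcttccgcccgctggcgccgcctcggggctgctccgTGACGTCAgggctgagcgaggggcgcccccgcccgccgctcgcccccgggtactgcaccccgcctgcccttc
Chga (chr12:102554821-102554940, plus strand): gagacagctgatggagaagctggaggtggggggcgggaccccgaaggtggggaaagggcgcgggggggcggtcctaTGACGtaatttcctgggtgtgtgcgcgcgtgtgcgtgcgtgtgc
Tph1 (chr7:46672538-46672657, minus strand): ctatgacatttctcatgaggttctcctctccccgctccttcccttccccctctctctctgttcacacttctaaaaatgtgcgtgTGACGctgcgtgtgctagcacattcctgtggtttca
Sst (chr16:23890845-23890964, minus strand): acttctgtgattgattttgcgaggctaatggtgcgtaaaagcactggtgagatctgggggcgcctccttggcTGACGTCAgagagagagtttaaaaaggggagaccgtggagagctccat
Gcg (chr2:62483654-62483773, minus strand): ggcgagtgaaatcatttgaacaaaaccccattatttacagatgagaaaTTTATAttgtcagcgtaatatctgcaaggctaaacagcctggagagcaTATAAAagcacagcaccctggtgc
Insl5 (chr4:103027272-103027391, minus strand): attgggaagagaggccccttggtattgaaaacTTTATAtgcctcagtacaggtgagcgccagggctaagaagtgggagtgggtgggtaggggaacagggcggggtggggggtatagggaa
Pyy (chr11:102107833-102107952, minus strand): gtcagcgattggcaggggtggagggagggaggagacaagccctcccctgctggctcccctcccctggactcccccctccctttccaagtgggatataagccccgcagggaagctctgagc
The full element was found in 2 of the 10 genes, Chgb and Sst, when 250 bases before each of their 13 starts were searched, and in 1.55% of 32851 promoters of the same length. TGACG was found in 6 of the 10 genes, namely Chga, Chgb, Tph1, Sst, Cck and Nts, and in 17.8% of all promoters. It was not found in the 250 bases before any start of Gcg, Pyy, Insl5 or Neurod1, and bases farther upstream were not searched. TATAAA was found before Gcg and Insl5 and in 12.4% of all promoters. These matches describe letters only and show no binding.

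Expression was measured as FPKM (fragments for each kilobase of a transcript, relative to the reads mapped in that sample), a level that can be compared between genes because it is scaled to transcript length. In each mouse 11518 to 12307 genes reached an FPKM of 1. Depth was estimated at 15600000 to 19300000 reads per mouse from genes above 0 in 1 mouse only, as the files hold no counts. Each such value was taken to stand for 1 read, so numbers of reads given here are approximate. At this depth 1 read on Cck was worth about 0.077 FPKM, and 1 read on Nts about 0.048 FPKM. Of the BBR mice, mouse 3 stood apart from mice 1 and 2, so list counts, and the values of genes that it decides, are also given without it. This mouse was singled out after the values were seen and by no set rule, so p-values without it are descriptive only. Leaving it out raised the number of all genes called from 1069 to 4018, whereas leaving out any other mouse lowered it to 51 to 405.

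The L cell hormones Pyy and Insl5 were the most abundant of the genes in every mouse. In SASP mice the order of the levels was Pyy, Insl5, Gcg, Chgb, Chga, Sst, Tph1, Cck, Neurod1 and Nts. In this order the ranges over mice overlapped only between Sst and Tph1 and between Cck and Neurod1. In BBR mice the order of the means was nearly the same, with Neurod1 ahead of Cck. There Pyy overlapped with Insl5, Insl5 with Gcg and Gcg with Chgb, as Gcg ranged from 17.9 to 126 FPKM, and overlaps were also found between Gcg and Chga, between Gcg and Sst, between Sst and Tph1 and among Neurod1, Cck and Nts. In BBR mice 1 and 2 Gcg was below both Chgb and Chga. In the plot of levels by mouse, the most abundant gene and the least abundant gene lie more than 2 powers of 10 apart.

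**Figure D1:**
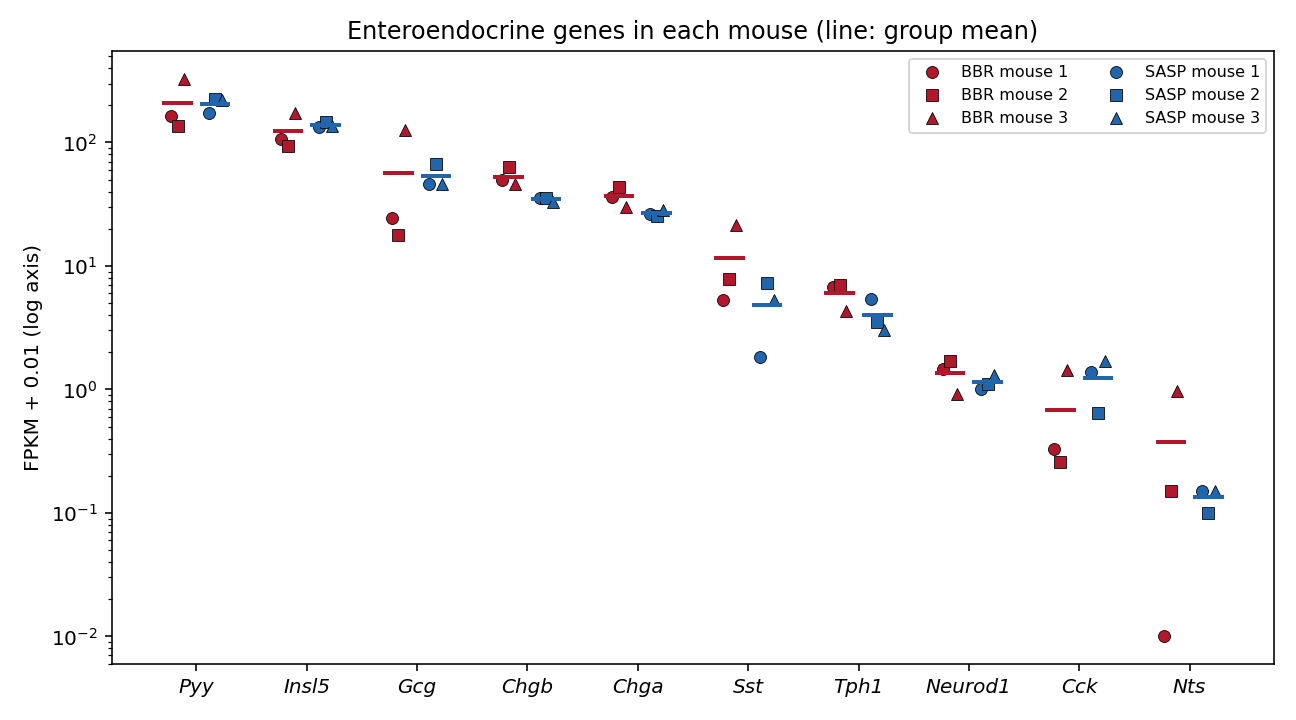
FPKM of the 10 enteroendocrine genes in each mouse, on a log axis after adding 0.01, with BBR mice in red, SASP mice in blue, a symbol for each mouse and a line at each group mean. Chga and Chgb are higher in each BBR mouse than in any SASP mouse, whereas for Pyy, Insl5 and Gcg the values of BBR mice 1 and 2 lie below and that of BBR mouse 3 above all SASP values.

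Of the granin genes, Chgb was higher in mice receiving BBR and Chga did not pass the test over all genes. Chgb (gene ID 12653) was at 49.3, 62.8 and 46.1 FPKM in BBR mice 1, 2 and 3, and at 35.7, 35.5 and 32.9 FPKM in SASP mice 1, 2 and 3. Each BBR mouse was above every SASP mouse. The means were 52.7 ± 8.84 FPKM (SD, n = 3) and 34.7 ± 1.59 FPKM (SD, n = 3), a ratio of 1.52. The log2 fold change, on the scale of log2(FPKM + 1), was 0.58 (SE 0.13, 95% interval 0.26 to 0.89, limma adjusted p = 0.0446). Chgb was the only gene of the 9 tested that passed the threshold of 0.05, and its call was lost when any mouse other than BBR mouse 3 was left out (limma adjusted p = 0.0889 to 0.159). Among all 12072 tested genes, 3.82% were called higher in BBR mice, 5.04% lower and 8.86% in either direction.

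Chga (gene ID 12652) was at 36.4, 43.2 and 29.8 FPKM in BBR mice 1, 2 and 3, and at 26.1, 25.5 and 28.2 FPKM in SASP mice 1, 2 and 3. The groups did not overlap, but BBR mouse 3 was close to SASP mouse 3. The means were 36.5 ± 6.69 FPKM (SD, n = 3) with BBR and 26.6 ± 1.40 FPKM (SD, n = 3) with SASP. The log2 fold change of 0.43 (SE 0.14, 95% interval 0.08 to 0.77) did not pass the threshold over all genes (limma adjusted p = 0.0992). Without BBR mouse 3 it was 0.56 (adjusted p = 0.0114). Chga and Chgb were the 2 genes of the 9 tested whose groups did not overlap, and 37.9% of all tested genes showed such a separation. The ratio of Chgb to Chga was 1.35 to 1.55 in BBR mice and 1.17 to 1.39 in SASP mice, and these ranges overlapped.

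Tph1 (gene ID 21990), which encodes the rate-limiting enzyme of serotonin synthesis outside neurons, was at 6.77, 6.95 and 4.34 FPKM in BBR mice 1, 2 and 3. In SASP mice 1, 2 and 3 it was at 5.38, 3.53 and 3.04 FPKM. BBR mice 1 and 2 were above all SASP mice, whereas BBR mouse 3 lay within the SASP range. The log2 fold change was 0.50 (SE 0.23, 95% interval -0.05 to 1.05, limma adjusted p = 0.188), and without BBR mouse 3 it was 0.69 (adjusted p = 0.0451). Mast cells also use Tph1. Of 13 mast cell markers listed 12 were measured, 4 passed the filter and 0 were called in either direction (1 with an unadjusted limma p below 0.05, median log2 fold change -0.27). Their summed level was 12.4 to 16.5 FPKM in BBR mice and 10.2 to 13.5 FPKM in SASP mice. Kit, which pacemaker cells of the gut also express, made up much of that sum at 8.42, 12.3 and 7.08 FPKM in BBR mice and 4.88, 5.11 and 4.88 FPKM in SASP mice, a log2 fold change of 0.75 (adjusted p = 0.0562). For Kit the log2 fold change without BBR mouse 3 was 0.91 (adjusted p = 0.0102), and Kit was then the 1 called of 2 tested markers (22.3% of all tested genes were called higher). Kit also passed with quantile normalization (0.0339), median-ratio scaling (0.0336) and array quality weights (0.000703). The main fit called 1069 genes in all, and these settings called 1728, 1684 and 7126. Of the mast cell protease genes, named after their values were seen, Cma1 reached at most 2.65 FPKM in any mouse, Mcpt1 1.70 FPKM, Mcpt2 1.49 FPKM and Cpa3 0.25 FPKM. The part of mast cells in the Tph1 values was not tested.

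The next enzyme of the pathway was higher in BBR mice. Ddc, the decarboxylase that completes serotonin synthesis and is also made by other epithelial cells, was at 63.3, 67.8 and 34.2 FPKM in BBR mice 1, 2 and 3. In SASP mice 1, 2 and 3 it was at 18.2, 26.3 and 18.7 FPKM. Each BBR mouse was above every SASP mouse. On the log2 scale the difference was 1.31 (SE 0.28, limma adjusted p = 0.0378), and the call was lost when any mouse other than BBR mouse 3 was left out (adjusted p = 0.0612 to 0.151). Ddc was the only 1 of 9 tested genes of serotonin synthesis, storage and uptake that passed the threshold, and none was called lower (median log2 fold change 0.08). In this list 2 genes had an unadjusted limma p below 0.05. Of all tested genes 8.86% were called in either direction, so 1 call among 9 is near that share. After their values were seen, 3 more were singled out. Gch1, which makes the cofactor of Tph1, had a log2 fold change of -0.41 (adjusted p = 0.447). Slc6a4, the serotonin transporter of the epithelium, was at -0.50 (adjusted p = 0.273), and Maob, a monoamine oxidase gene, at -0.73 (adjusted p = 0.121). Slc6a4 and Maob were lower in each BBR mouse than in any SASP mouse. With Ddc, 3 of the 9 genes did not overlap between groups, against 37.9% of all tested genes. With BBR mouse 3 left out, Ddc was called higher at 1.61 (adjusted p = 0.00255) and Gch1 was called lower at -0.84 (adjusted p = 0.00691). Slc6a4 was then at -0.14 (adjusted p = 0.309) and Maob at -0.42 (adjusted p = 0.0692). In that comparison 22.3% of all tested genes were called higher and 11.5% lower.

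L cell hormones split the BBR group. Gcg (gene ID 14526) was at 24.6, 17.9 and 126 FPKM in BBR mice 1, 2 and 3, and at 46.0, 67.2 and 46.3 FPKM in SASP mice 1, 2 and 3. BBR mice 1 and 2 were thus below all SASP mice and BBR mouse 3 was above them, at 5.95 times the mean of the other BBR mice. The means were 56.3 ± 60.8 FPKM (SD, n = 3) with BBR and 53.1 ± 12.2 FPKM (SD, n = 3) with SASP. No difference was detectable between the groups (log2 fold change -0.43, SE 0.66, 95% interval -2.01 to 1.14, limma adjusted p = 0.674). Without BBR mouse 3 the mean with BBR was 21.2 FPKM, 0.399 of the SASP mean, and the log2 fold change was -1.28 (SE 0.21, adjusted p = 0.00855).

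Pyy (gene ID 217212), the most abundant hormone transcript, was at 164, 136 and 328 FPKM in BBR mice 1, 2 and 3, and at 172, 223 and 220 FPKM in SASP mice 1, 2 and 3. The same mice were low and high as for Gcg. For Pyy the log2 fold change was -0.07 (SE 0.32, 95% interval -0.82 to 0.68, limma adjusted p = 0.895), and it was -0.44 without BBR mouse 3 (adjusted p = 0.0616). The direction of the Pyy difference over all 6 mice was not stable, as it turned to 0.03 after quantile normalization.

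Insl5 (gene ID 23919), a hormone of distal L cells, was at 106, 93.6 and 172 FPKM in BBR mice 1, 2 and 3, and at 134, 146 and 135 FPKM in SASP mice 1, 2 and 3. Its SASP values lay close together, with BBR mice 1 and 2 below them and BBR mouse 3 above. For Insl5 the log2 fold change was -0.21 (SE 0.22, 95% interval -0.73 to 0.31, limma adjusted p = 0.534), and without BBR mouse 3 it was -0.47 (adjusted p = 0.0134). Within L cell hormones the proportions also moved: the ratio of Gcg to Pyy was 0.150, 0.131 and 0.385 in BBR mice 1, 2 and 3, against 0.210 to 0.301 in SASP mice.

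Sst (gene ID 20604), the inhibitory hormone of D cells that some enteric neurons also make, was at 5.30, 7.85 and 21.4 FPKM in BBR mice 1, 2 and 3. In SASP mice 1, 2 and 3 it was at 1.83, 7.30 and 5.24 FPKM. BBR mouse 3 was the highest and SASP mouse 1 the lowest, and the other 4 mice overlapped. For Sst the log2 fold change was 1.03 (SE 0.55, 95% interval -0.28 to 2.34, limma adjusted p = 0.239), and it was 0.50 without BBR mouse 3 (adjusted p = 0.401). The same mice were at the extremes of the summed enteric neuron markers, given with the other cell types, and the part of neurons in the Sst values was not tested.

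Neurod1 (gene ID 18012) was at 1.45, 1.68 and 0.91 FPKM in BBR mice 1, 2 and 3, and at 1.00, 1.09 and 1.30 FPKM in SASP mice 1, 2 and 3. BBR mice 1 and 2 were above all SASP mice and BBR mouse 3 below them, the opposite of Gcg, and the log2 fold change was 0.13 (SE 0.17, limma adjusted p = 0.625). Quantile normalization turned it to -0.03. Cck (gene ID 12424) was at 0.32, 0.25 and 1.43 FPKM in BBR mice 1, 2 and 3, and at 1.38, 0.63 and 1.70 FPKM in SASP mice 1, 2 and 3, which is about 3.3 to 22 reads. Its log2 fold change of -0.46 (SE 0.31, adjusted p = 0.333) therefore rests on few reads. Nts (gene ID 67405) was listed at 0 in BBR mouse 1, at 0.14 and 0.96 FPKM in BBR mice 2 and 3, and at 0.09 to 0.14 FPKM in SASP mice. It did not pass the filter and was not tested, and only BBR mouse 3 had more than about 3.2 reads.

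Counted together, 1 of the 9 tested genes was called higher and 0 lower (2 had an unadjusted limma p below 0.05, and 3837 of all tested genes did). This is near the share of all genes called. The log2 fold changes were positive for 5 genes and negative for 4, with a median of 0.13, and the median of all tested genes was 0.10. With median-ratio scaling the median of all genes moved by -0.12, and Chgb still had a log2 fold change of 0.45. Without BBR mouse 3, Cck no longer passed the filter, and 3 of 8 genes were called higher (Chga, Chgb and Tph1) and 2 lower (Gcg and Insl5). In that comparison 33.8% of all 11878 tested genes were called, 22.3% higher and 11.5% lower, so calls were frequent throughout the table. In bulk tissue, fewer cells of a type and less RNA per cell cannot be told apart.

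**Figure D2:**
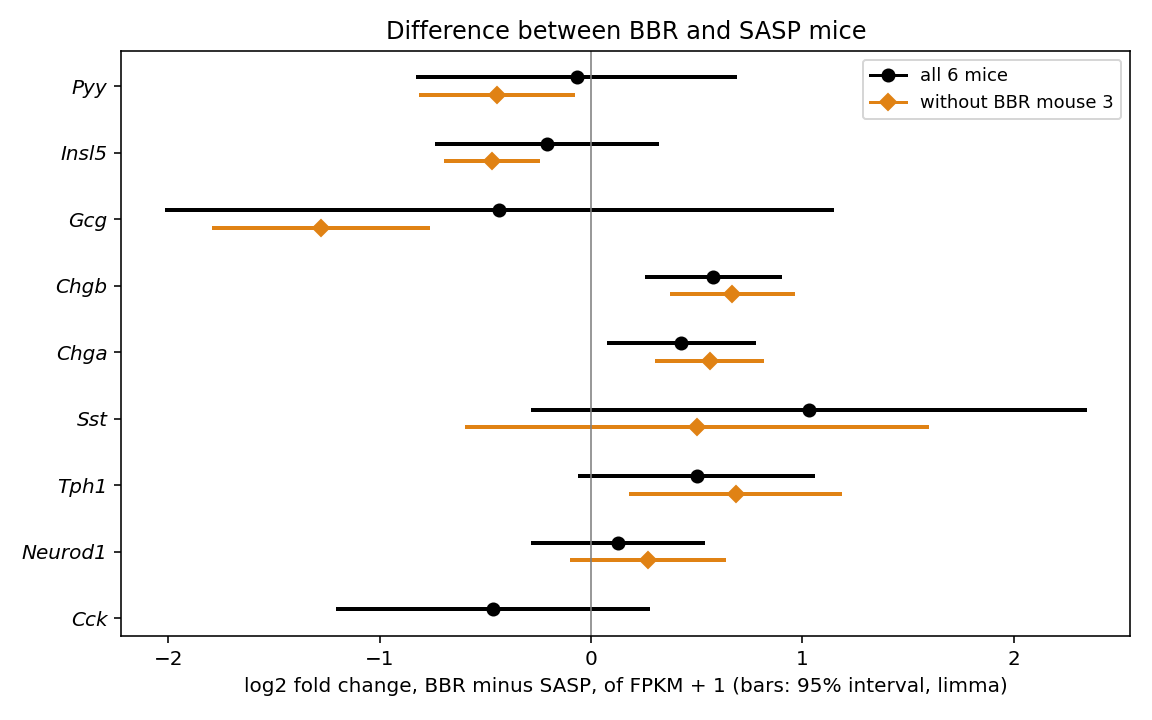
Log2 fold change of BBR over SASP mice on the scale of log2(FPKM + 1), with 95% intervals from limma, for the 9 tested genes over all 6 mice (black circles) and without BBR mouse 3 (orange diamonds; Cck was then not tested). The interval of Gcg shrinks from -2.01 to 1.14 over all mice to one that lies below 0 without BBR mouse 3, while Chga and Chgb stay above 0 in both.

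The makeup of the summed enteroendocrine signal differed among mice accordingly. The sum over the 10 genes was 394, 371 and 731 FPKM in BBR mice 1, 2 and 3, and 423, 510 and 474 FPKM in SASP mice 1, 2 and 3. Gcg, Pyy and Insl5 together made up 74.7%, 66.8% and 85.6% of it in BBR mice and 83.1%, 85.5% and 84.7% in SASP mice. The share of Chga, Chgb and Tph1 was 23.5%, 30.5% and 11.0% in BBR mice and 15.9%, 12.7% and 13.5% in SASP mice. BBR mice 1 and 2 thus had a larger granin and serotonin share than any SASP mouse, and BBR mouse 3 a smaller share than any of them. The ratio of Gcg to Chga was 0.674, 0.414 and 4.24 in BBR mice 1, 2 and 3, against 1.64 to 2.63 in SASP mice.

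**Figure D3:**
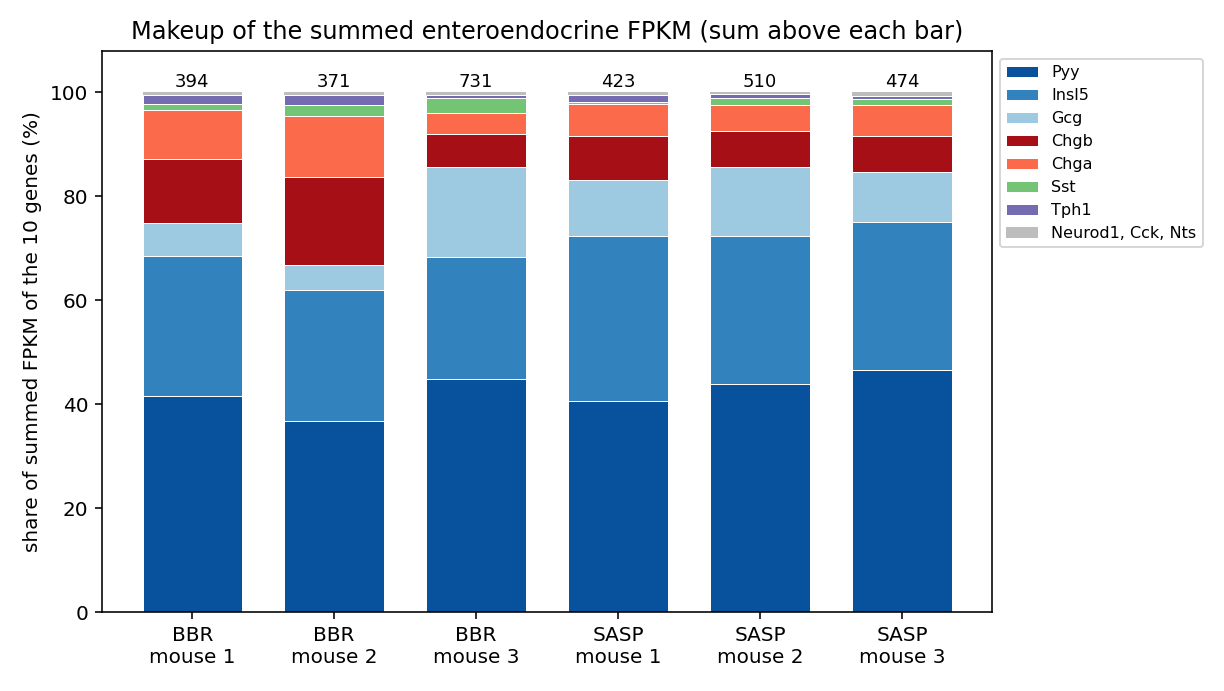
Share of each gene in the summed FPKM of the 10 enteroendocrine genes, in percent, as a stacked bar for each mouse with the sum in FPKM above it. The red part (Chgb and Chga) is widest in BBR mice 1 and 2, and the light blue part (Gcg) is widest in BBR mouse 3.

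Against BBR mice 1 and 2, BBR mouse 3 was higher than either for 6 of the 10 genes and lower than either for 4. Its value relative to their mean was 5.95 for Gcg, 2.18 for Pyy, 1.72 for Insl5 and 3.25 for Sst, but 0.749 for Chga, 0.823 for Chgb, 0.633 for Tph1 and 0.582 for Neurod1. Over the tested genes with a value above 0 in those mice, this ratio had a median of 0.856 and lay between 0.453 and 1.73 from the 5th to the 95th percentile. The ratios of the granins, Tph1, Neurod1 and Insl5 lay within that span, and those of Gcg, Pyy and Sst above it. The pattern of Gcg, Pyy and Insl5, with BBR mice 1 and 2 below and BBR mouse 3 above every SASP mouse, was noticed after the values were seen and held for 277 (2.29%) of all tested genes. The opposite pattern, seen in Neurod1, held for 1357 (11.2%).

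Among 8 other tested hormones and peptides of the gut, 0 were called in either direction (1 had an unadjusted limma p below 0.05; median log2 fold change -0.07). Tac1, the precursor of substance P in enterochromaffin cells and neurons, followed the L cell hormones. It was at 15.2, 14.8 and 150.0 FPKM in BBR mice 1, 2 and 3, and at 47.9, 123 and 60.5 FPKM in SASP mice 1, 2 and 3 (log2 fold change -1.09, adjusted p = 0.412). Without BBR mouse 3 its log2 fold change was -2.17 (adjusted p = 0.0097). Ppy, a relative of Pyy, had the same order, with 27.5, 17.8 and 50.6 FPKM in BBR mice and 29.1, 41.2 and 48.1 FPKM in SASP mice, a log2 fold change of -0.39 (adjusted p = 0.482). Guca2a, which encodes guanylin of the surface epithelium, was at 282, 139 and 1055 FPKM in BBR mice and at 61.9, 232 and 123 FPKM in SASP mice, a log2 fold change of 1.51 (adjusted p = 0.222). For Guca2a too BBR mouse 3 was the highest, but BBR mice 1 and 2 were not below the SASP mice, and without BBR mouse 3 its log2 fold change was 0.70 (adjusted p = 0.351). Ppy was then at -0.78 (adjusted p = 0.0584). Of the 8 genes 2 were then called lower, Tac1 and Adm, the latter named after its values were seen. The share of all tested genes called lower was 11.5%.

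**Figure D4:**
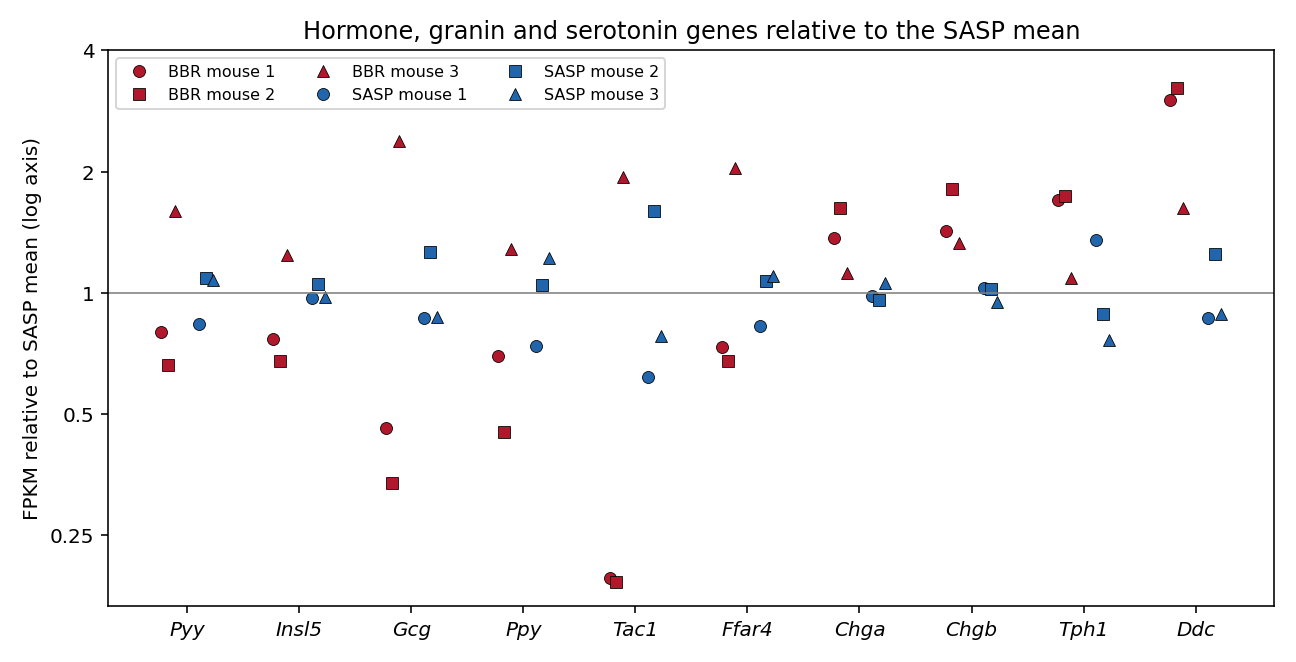
FPKM relative to the mean of the 3 SASP mice, on a log axis, for L cell hormones, Ppy, Tac1, the fatty acid receptor Ffar4, granins, Tph1 and Ddc, with a symbol for each mouse. BBR mouse 3 (red triangle) is above the other BBR mice for the first 6 genes and below them for the last 4. The genes shown are a selection made with their values known, and Sst, Guca2a, Cck and Neurod1 are among those not shown.

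Genes of the secretory granule and of prohormone processing gave no call. Of 28 such genes 21 were tested, 20 had a positive log2 fold change, 5 had an unadjusted limma p below 0.05 and 0 passed after adjustment (median 0.44). Over all 12072 tested genes, 7337 had a positive log2 fold change and 3837 an unadjusted p below 0.05. With BBR mouse 3 left out, 1 of 20 was called higher and 1 lower, against 22.3% and 11.5% of all tested genes. Pam, the enzyme that amidates many peptide hormones, was at 70.4, 67.0 and 105 FPKM in BBR mice and 47.4, 71.0 and 55.8 FPKM in SASP mice, a log2 fold change of 0.46 (adjusted p = 0.189). These genes are also active in enteric neurons. In BBR mouse 3, 12 of the 21 were above both other BBR mice and 2 below both.

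Transcription factors of the lineage were mostly too low to test. Of 21 listed, 6 passed the filter, and 0 were called (0 with an unadjusted limma p below 0.05; median log2 fold change 0.33). Atoh1, the factor of all secretory epithelial cells, was at 24.7, 28.7 and 18.0 FPKM in BBR mice and 16.1, 17.2 and 22.7 FPKM in SASP mice, a log2 fold change of 0.32 (adjusted p = 0.296). Foxa1 and Foxa2, which act in endocrine differentiation, had log2 fold changes of -0.02 (adjusted p = 0.941) and -0.05 (adjusted p = 0.928), and both turned positive without BBR mouse 3 (0.093, adjusted p = 0.479, and 0.34, adjusted p = 0.0516). Without that mouse 2 of the 6 were called higher, Sox4 and Mlxipl, named after their values were seen, and Atoh1 was at 0.50 (adjusted p = 0.0526). Of all tested genes 22.3% were then called higher. Neurog3, the factor that starts the endocrine fate, was at 0.14 to 0.56 FPKM and below the filter, and is given as a gene chosen after its values were seen.

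Receptors that feed into hormone release gave no call over all 6 mice. Of 18 sensors of nutrients, bile acids and bacterial metabolites listed, 17 were measured, 8 were tested and 0 passed (1 had an unadjusted limma p below 0.05, median log2 fold change 0.24). Nr1h4, the nuclear bile acid receptor, was at 34.4, 28.9 and 59.9 FPKM in BBR mice and 58.9, 54.0 and 58.9 FPKM in SASP mice. BBR mice 1 and 2 were below all SASP mice, and BBR mouse 3 was just above them (log2 fold change -0.54, adjusted p = 0.187). Without BBR mouse 3 the log2 fold change of Nr1h4 was -0.84 (adjusted p = 0.00385). With array quality weights Nr1h4 also passed (adjusted p = 0.000352), as did Slc15a1 (adjusted p = 0.0188). Those weights called 7126 of all 12072 tested genes, so passing there was common. The peptide transporter gene Slc15a1 and the glucose transporter gene Slc5a1 had log2 fold changes of 0.34 (adjusted p = 0.316) and -0.10 (adjusted p = 0.749). Ffar4, a receptor for long-chain fatty acids that was chosen after its values were seen, was at 14.2, 13.1 and 39.6 FPKM in BBR mice and 16.0, 20.7 and 21.2 FPKM in SASP mice. With BBR mouse 3 left out, 1 of the 8 sensors was called higher (Slc15a1, 0.58, adjusted p = 0.0209) and 2 lower (Nr1h4 and Ffar4, the latter at -0.47, adjusted p = 0.0443). Of all tested genes 22.3% were then called higher and 11.5% lower.

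Of 25 receptors and degrading enzymes of the hormones listed, 24 were measured, 10 were tested and 0 were called (4 had an unadjusted limma p below 0.05, median log2 fold change 0.44). Sort1, a sorting receptor that binds neurotensin, was at 109, 101 and 102 FPKM in BBR mice and 69.9, 87.3 and 71.8 FPKM in SASP mice, with no overlap (log2 fold change 0.45, adjusted p = 0.0575). Dpp4, the protease that inactivates glucagon-like peptide 1 made from Gcg, was at 7.72, 7.12 and 3.48 FPKM in BBR mice and 10.3, 12.7 and 9.45 FPKM in SASP mice. It was lower in every BBR mouse, without passing the threshold (log2 fold change -0.78, adjusted p = 0.1). Htr3a, a serotonin receptor of enteric neurons, had a log2 fold change of 0.68 (adjusted p = 0.37), which was 0.24 without BBR mouse 3. Without that mouse 2 of 9 were called higher and 1 lower, among them Sort1 at 0.46 (adjusted p = 0.0279) and Dpp4 at -0.48 (adjusted p = 0.0414). The shares of all tested genes were 22.3% higher and 11.5% lower. Sort1 also passed with quantile normalization (0.0382) and array quality weights (0.000469). Dpp4 also passed with quantile normalization (0.0499), median-ratio scaling (0.0432) and array quality weights (0.0293). Quantile normalization called 1728 genes in all, median-ratio scaling 1684 and array quality weights 7126, against 1069 in the main fit.

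**Figure D5:**
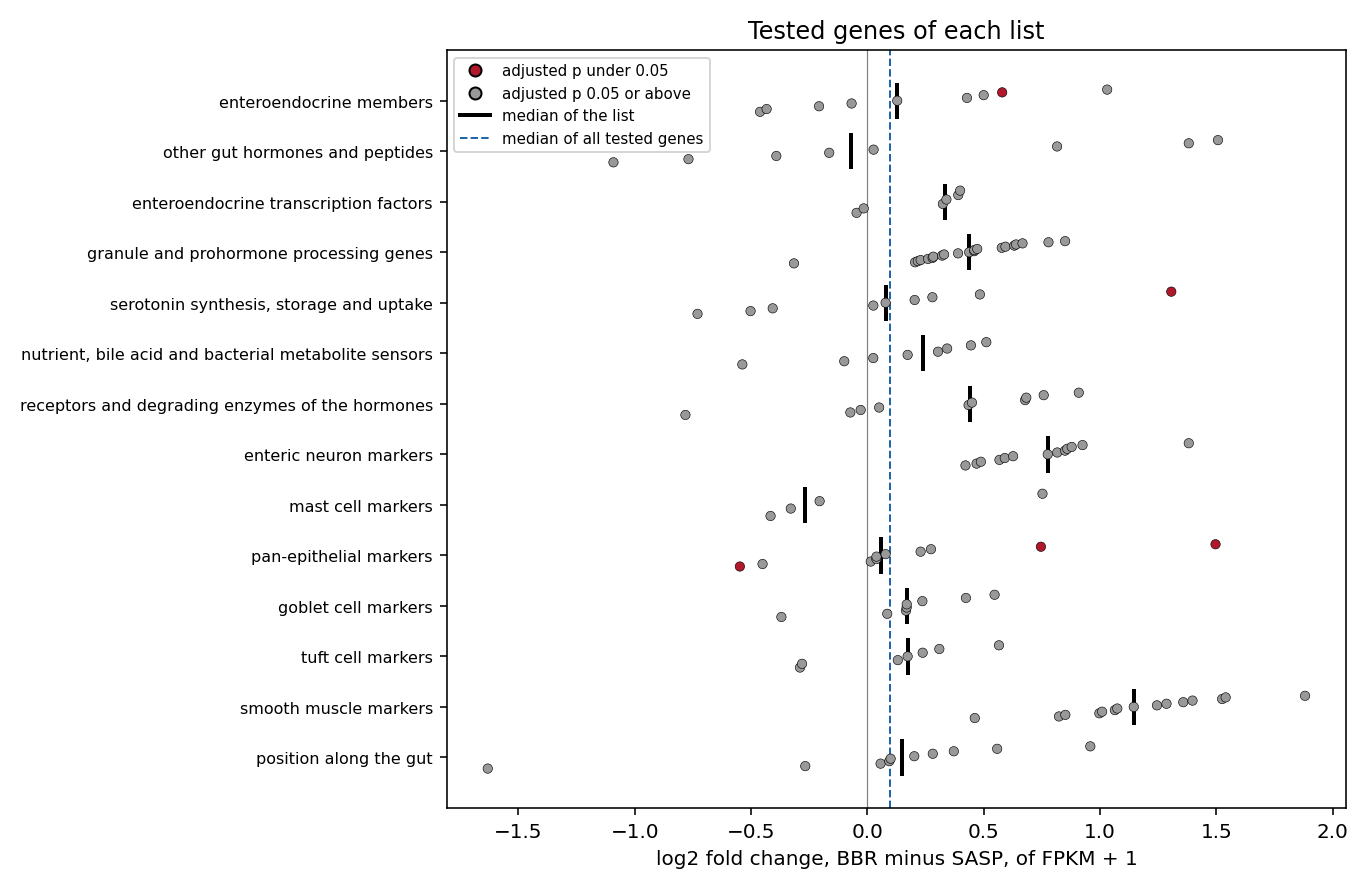
Log2 fold change of BBR over SASP mice for each tested gene of the enteroendocrine genes and of 13 other lists, with genes past the threshold in red, a black bar at the median of each list and a dashed line at the median of all tested genes. Chgb, Ddc and 3 epithelial genes are red, and the medians of the smooth muscle and enteric neuron markers lie farthest to the right.

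Markers of other cells of the gut wall moved with the mice. The 10 pan-epithelial markers summed to 6215 to 6567 FPKM in BBR mice and 6016 to 6946 FPKM in SASP mice, so the epithelial signal was of similar size in both groups (median log2 fold change 0.06). Within this list Krt18 (log2 fold change 0.75, limma adjusted p = 0.0163) and Cdx2 (1.5, adjusted p = 0.0422) were higher in BBR mice, and Vil1 was lower (-0.55, adjusted p = 0.0327). These were 2 higher and 1 lower of 10 tested, against 3.82% and 5.04% of all tested genes. An unadjusted limma p below 0.05 was found for 4 of the 10. The call of Vil1 was lost when any mouse other than BBR mouse 3 was left out (0.0629 to 0.139), that of Cdx2 on leaving out either of BBR mice 1 and 2 or of SASP mice 1 and 3 (0.052 to 0.163), and that of Krt18 on leaving out BBR mouse 1, SASP mouse 1 or SASP mouse 3 (0.0557 to 0.0927). In the comparison without BBR mouse 3, 3 of the 10 were called higher and 2 lower, against 22.3% and 11.5% of all tested genes. Smooth muscle markers summed to 4210, 4591 and 9474 FPKM in BBR mice 1, 2 and 3 and to 1284, 3514 and 2665 FPKM in SASP mice 1, 2 and 3. All 15 had a positive log2 fold change and 0 were called (12 with an unadjusted limma p below 0.05; median 1.14), with Tagln at 1.29 (adjusted p = 0.141). After BBR mouse 3 was left out, 0 were called, and Tagln was at 0.85 (adjusted p = 0.189).

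Enteric neuron markers summed to 44.4, 118 and 202 FPKM in BBR mice 1, 2 and 3 and to 26.1, 73.5 and 61.9 FPKM in SASP mice 1, 2 and 3. All 13 tested markers had a positive log2 fold change, and 0 were called (0 with an unadjusted limma p below 0.05; median 0.77), with Vip at 1.38 (adjusted p = 0.24). Again 0 were called without BBR mouse 3, and Vip was at 0.67 (adjusted p = 0.406). BBR mouse 3 had the highest sums of neuron and smooth muscle markers and the lowest Chga, Chgb and Tph1 of the BBR group. BBR mouse 2 had higher sums and higher Chga and Chgb than BBR mouse 1. With the smooth muscle covariate in limma, the log2 fold change was 0.58 for Chga (adjusted p = 0.257) and 0.69 for Chgb (adjusted p = 0.204). That fit called 18 genes in all and does not measure the part of muscle in the granin levels. The part of neurons was not tested. The L cell hormones, Sst and Tac1 were highest in BBR mouse 3 and were not called with that covariate. Their log2 fold changes in that fit were -1.76 for Gcg, -0.76 for Pyy, -0.59 for Insl5, -0.56 for Sst and -3.16 for Tac1. Without the covariate they were -0.43, -0.07, -0.21, 1.03 and -1.09. The part of muscle and neuron content in their levels was not tested.

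Goblet cell markers gave 0 calls among 8 tested (0 with an unadjusted limma p below 0.05; median 0.17), with Zg16 at a log2 fold change of 0.17 (adjusted p = 0.81) that turned to -0.28 without BBR mouse 3. Tuft cell markers gave 0 calls among 7 tested (1 with an unadjusted limma p below 0.05; median 0.17), with Ptgs1 at 0.57 (adjusted p = 0.0746). When BBR mouse 3 was left out, 1 goblet cell marker was called lower (Spink4, named after its values were seen) and 1 tuft cell marker higher (Ptgs1, 0.40, adjusted p = 0.0342). Over all tested genes 11.5% were called lower and 22.3% higher. The 5 markers of the endocrine pancreas in the table, another source of Gcg, Sst and Chga, summed to at most 1.58 FPKM in any mouse, and none was tested.

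Genes that mark position along the gut differed among the BBR mice. Of 10 tested, 0 were called (3 with an unadjusted limma p below 0.05, median log2 fold change 0.15). All 10 were lower in BBR mouse 3 than in BBR mice 1 and 2, at 0.287 to 0.869 of their mean. That ratio had a median of 0.51 here and of 0.856 over all tested genes with a value above 0 in those mice. Hoxb13, a gene of the most distal gut, was at 264, 300.2 and 151 FPKM in BBR mice and 199, 168 and 199 FPKM in SASP mice, a log2 fold change of 0.28 (adjusted p = 0.467). In the comparison without BBR mouse 3, 5 of the 10 were called higher (22.3% of all tested genes were), with Hoxb13 at 0.58 (adjusted p = 0.0141). Levels of Gcg, Pyy and Insl5 are known to vary along the colon, and the part of the sampled position in their values was not tested.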

How the data were processed

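Total RNA of colorectal tissue of 6 mice was sequenced. The deposited table holds FPKM values per gene and mouse, which the authors calculated with RSEM (1.2.12) from reads aligned with Bowtie2 (2.2.5), and the submitters' processing notes name the build mm9. The methods describe ribosomal RNA depletion and single-end reads, whereas the labels name an Illumina kit. RSEM divides reads among similar genes. Groups were taken from the treatment labels, and mouse numbers follow accession order and pair no mice. Each sample was taken as a separate mouse, which the labels do not state outright, so p-values measure the spread between these samples.

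Values were analysed as log2(FPKM + 1), which understates fold changes of low genes. A gene was tested if its FPKM was 1 or more in 3 or more mice. The test was made with limma 3.58.1 (R 4.3.3; empirical Bayes with a mean-variance trend, two-sided), and p-values were adjusted by the Benjamini-Hochberg method over all 12072 genes and called below 0.05. Permuting 3 and 3 mice in an exact test can reach no p under 0.10, so none was run. Depth was estimated as a median over genes above 0 in 1 mouse only, on transcripts shorter than 1500 bases, with each value assumed to be 1 read. Identical values in a pair of mice made up at most 0.389% of tested genes. Promoters were taken from RefSeq (GRCm38.p6) by symbol, with a match for all 10 genes. No coordinates of the files' own build are given.

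The genes and the 14 other lists were chosen with earlier results of these data known. Beside the 10 genes, the text names from each other list the genes past the threshold or, where none passed, the gene with the highest mean FPKM, and the 3 highest of the hormones, factors, sensors and receptors. Alternatives were another pseudocount (0.1), no filter, quantile normalization, median-ratio scaling, no variance trend, array quality weights, a smooth muscle or epithelial covariate, and leaving out each mouse. Each covariate was the mean of the log-scale levels of the smooth muscle or pan-epithelial markers in a mouse, not their summed FPKM.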

Additional observations from a re-analysis of the deposited data

How the results depend on the processing

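Of 123 alternative values for the log2 fold changes of single enteroendocrine genes, 98 kept their direction and their side of the threshold, 9 lost a call, 10 gained a call and 6 changed sign. The 1069 genes called in all became 608 with no filter, 1728 with quantile normalization, 1684 with median-ratio scaling (498 higher and 1186 lower, against 461 and 608), 7126 with array quality weights (4636 higher and 2490 lower), 18 with the smooth muscle covariate (2 higher and 16 lower) and 0 with the epithelial covariate in limma (2229 with an unadjusted p below 0.05). Leaving out a mouse gave 51 (without SASP mouse 3) to 4018 (without BBR mouse 3), with 59 without SASP mouse 1, 131 without BBR mouse 1, 371 without BBR mouse 2 and 405 without SASP mouse 2.

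The 1 enteroendocrine gene past the threshold, Chgb, had a log2 fold change of 0.58. Its call was lost (0 called) with no filter (limma adjusted p = 0.0642) and with no variance trend (0.0558). It was also lost with the smooth muscle covariate (0.204, log2 fold change 0.69) and with the epithelial covariate (0.241, log2 fold change 0.72). Array quality weights called 7126 of all 12072 tested genes and 7 of the 9 enteroendocrine genes (3 higher and 4 lower). Leaving out a mouse gave 0 to 5 called. The median log2 fold change of 0.13 became 0.20 with a pseudocount of 0.1, 0.034 with quantile normalization, 0.049 with median-ratio scaling, -0.56 with the smooth muscle covariate and 0.090 to 0.39 when a mouse was left out. The cause of these changes was not tested. Krt18, Cdx2, Vil1 and Ddc also lost their calls with both covariates, and Cdx2, Vil1 and Ddc with no filter. Krt18, Cdx2 and Vil1 are themselves among the markers behind the epithelial covariate. That covariate left 0 genes called in all, so the losses there say nothing about single genes.

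When a mouse was left out, the log2 fold change of Gcg ranged from -1.28 (without BBR mouse 3) to 0.10 (without BBR mouse 2), and that of Pyy from -0.44 (without BBR mouse 3) to 0.19 (without BBR mouse 2), with 0.053 without BBR mouse 1. Pyy turned to 0.034 and Neurod1 to -0.034 with quantile normalization. With the smooth muscle covariate Sst turned to -0.56, Guca2a to -0.40, Foxa1 to 0.12, Foxa2 to 0.36, Pam to -0.074, Slc5a1 to 0.19, Htr3a to -0.48, Vip to -0.69, Zg16 to -0.73 and Tagln to -0.19. Tagln is itself among the markers behind the smooth muscle covariate. With the epithelial covariate Foxa1 turned to 0.16 and Foxa2 to 0.24. With array quality weights Foxa2 turned to 0.25, Slc5a1 to 0.14, Htr3a to -0.45 and Zg16 to -0.20. Over the left-out mice Foxa1 ranged from -0.13 (without BBR mouse 2) to 0.093 (without BBR mouse 3), with 0.017 without SASP mouse 3. Foxa2 ranged from -0.26 (without BBR mouse 2) to 0.34 (without BBR mouse 3), Slc5a1 from -0.23 (without BBR mouse 1) to 0.14 (without BBR mouse 3), and Zg16 from -0.28 (without BBR mouse 3) to 0.48 (without BBR mouse 2), with -0.024 without SASP mouse 1.

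No paired analysis was possible because the mouse numbers follow accession order and the labels tie no BBR mouse to a SASP mouse. Precision is limited by 3 mice a group, and for Cck and Nts also by depth.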
